A study of Mus musculus with 14 samples.

Results

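Liver transcription was compared between mice made obese by diet whose bile was then diverted to the distal small intestine and obese mice that had not been operated on. The comparison took the livers labelled as gallbladder-to-ileum anastomosis (GB-IL, n = 4) and those labelled as diet-induced obesity without surgery (DIO, n = 5), which are 9 of the 14 livers in the series. All genes of the deposited count table were used, and no liver was left out. All mice were male C57BL/6 animals made obese on a high-fat diet (HFD) that was continued to the end of the study. The labels place the livers 8 weeks after surgery or after the start of observation. In GB-IL mice the gallbladder was joined to the ileum and the common bile duct was ligated. The DIO mice had no sham operation, so effects of surgery and of bile diversion cannot be told apart in this comparison. The study reports that GB-IL mice lost weight, ate less and had less liver fat than DIO mice. Effects of these differences cannot be told apart from those of the diversion either. The remaining 5 livers came from HFD-fed mice after Roux-en-Y gastric bypass (RYGB), which entered the statistical model as a further group and are not otherwise described. The labels do not say whether each library came from a separate cage or day. The model's p-values rest on a spread estimated over all 14 livers, the RYGB livers included.

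Bile acids are made from cholesterol in hepatocytes, secreted into bile and returned from the ileum through the portal blood, and the nuclear receptor FXR lowers their synthesis when they accumulate. Hepatocytes also make most plasma proteins, burn and synthesize fatty acids, release glucose and dispose of ammonia. Under signals of inflammation such as interleukin-6 and interleukin-1 they make acute phase proteins, and resident macrophages (Kupffer cells), recruited myeloid cells, stellate cells and bile duct cells respond beside them.

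The total count per liver was 20406728, 19231679, 25021471 and 26131278 in GB-IL livers 1, 2, 3 and 4 and lay between 18440676 and 21473005 in the DIO livers. The 4 GB-IL livers did not form a tight group. On the first principal component of log2 CPM (TMM-scaled counts relative to library size), which held 59.6% of the variance among the 9 livers, GB-IL livers 1 to 4 lay at -127.5, -97.1, -11.3 and 43.3, whereas the DIO livers lay between 30.6 and 53.0. The median root mean square difference of log2 CPM to the DIO livers was 1.5, 1.28, 0.89 and 0.58 for GB-IL livers 1 to 4, and between 0.56 and 0.64 for each DIO liver against the other DIO livers. GB-IL liver 4 was therefore no farther from the DIO livers than these were from each other. The common biological coefficient of variation, edgeR's measure of spread between samples, was 0.543 within GB-IL, 0.244 within DIO and 0.295 within RYGB. The model of all livers gave each gene a spread shared by the groups. It therefore drew on the less variable DIO and RYGB livers and can understate the spread within GB-IL. Of all genes tested, 26.4% of those in GB-IL liver 1 lay within the range of the 5 DIO livers, as did 28.7%, 56.2% and 70.1% of those in GB-IL livers 2, 3 and 4.

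**Figure D1:**
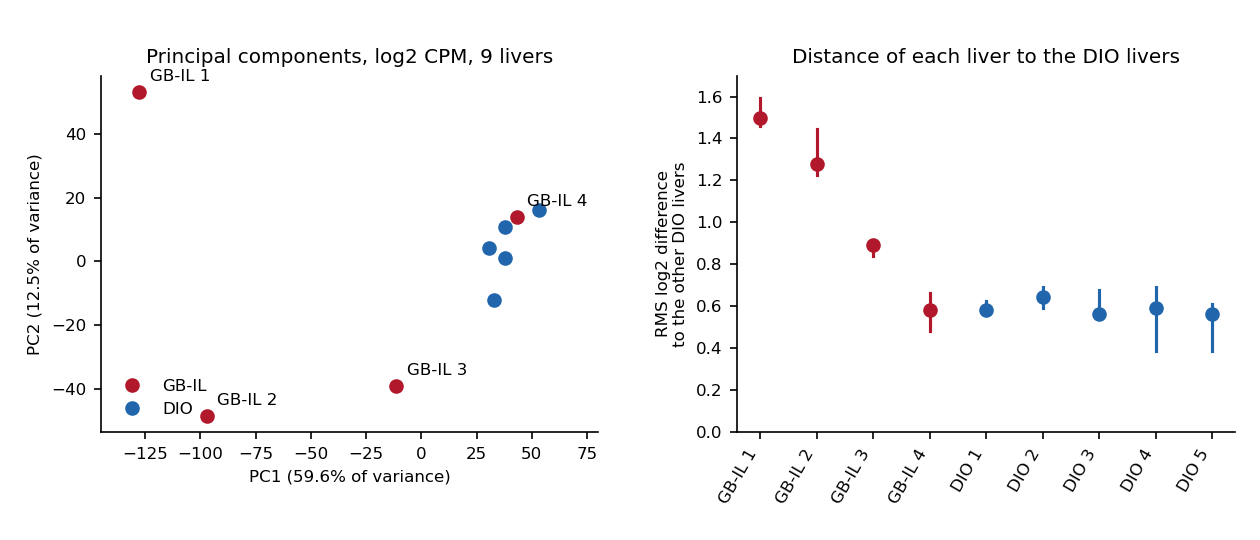
Left, first and second principal components of log2 CPM for the 9 livers (points; GB-IL red, DIO blue); right, root mean square log2 difference of each liver to the other DIO livers (point, median; line, lowest to highest). GB-IL livers 1, 2 and 3 lie at -127.5, -97.1 and -11.3 on the first component and GB-IL liver 4, at 43.3, lies among the DIO livers.

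Markers of other tissues are given first. The 10 genes of a skeletal muscle list summed to 2141 CPM in GB-IL liver 1 and to between 0.79 and 3.89 CPM in the other 8 livers. *Acta1*, the muscle actin, had 11540 counts in GB-IL liver 1 and at most 21 in any other. Genes of pancreatic acinar cells summed to 1575 CPM in GB-IL liver 1 and to between 9.12 and 38.8 CPM elsewhere. Their part in the results was tested only by leaving out GB-IL liver 1. The 6 genes of an adipose list summed to 31.7, 24.3, 140 and 3454 CPM in GB-IL livers 1 to 4 and to between 2223 and 3042 CPM in DIO, so that livers 1 to 3 lay far below DIO and liver 4 above it. In DIO and in GB-IL liver 4 most of the sum was *Car3*, which hepatocytes also express. Within that list *Adipoq* and *Lep*, the genes most particular to adipocytes, had 49 and 35 counts in GB-IL liver 4, against 0 to 4 and 0 to 1 in the other livers. The hepatocyte marker *Alb* (albumin) had 69890, 87460, 57310 and 92390 CPM in GB-IL livers 1 to 4 and 104200, 91670, 95940, 107900 and 97060 CPM in DIO livers 1 to 5, so that it was abundant in every liver and lay below the DIO range in GB-IL livers 1 to 3 (log2 fold change -0.37, edgeR adjusted p = 0.385). In whole tissue, fewer cells of a type and less RNA per cell cannot be told apart.

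Over 14252 genes with enough counts, edgeR's quasi-likelihood test on all 14 livers called 449 genes higher and 16 lower in GB-IL than in DIO at a false discovery rate (FDR) of 0.05, that is 3.15% and 0.112% of the genes tested. At an unadjusted p below 0.05 there were 2381 genes higher and 916 lower (16.7% and 6.43%). GB-IL lay entirely above DIO in 380 genes (2.67%) and entirely below it in 215 (1.51%). The calls stood close to the threshold, with a smallest adjusted p of 0.0278, and they depended on the livers in the model. With only the 9 compared livers in the model no gene passed, a count of 0 (smallest adjusted p = 0.0844 by edgeR, and 2352 genes under 0.05 before adjustment). DESeq2, run on all 14 livers and on 24335 genes, called 1164 higher and 183 lower. With the RYGB livers in the model but without GB-IL liver 1, edgeR's count of calls was also 0, with 2134 genes under 0.05 before adjustment. That count was 0 as well without GB-IL liver 2 or without any single DIO liver. With GB-IL liver 4 left out instead, edgeR called 2228 higher and 1344 lower (15.4% and 9.27% of 14492 genes tested). All calls named from here on come from the model of 14 livers with every liver kept.

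The genes called higher were high in GB-IL livers 1, 2 and 3. GB-IL livers 1, 2, 3 and 4 lay above every DIO liver in 447, 442, 434 and 185 of the 449 genes. Over all genes tested they did so in 36.1%, 35.4%, 25.5% and 15.5%. GB-IL livers 2 and 3 were both above every DIO liver in 428 of the 449, and in 2237 of all 14252 genes tested. GB-IL liver 4 was the lowest of its group in 397 of the 449. Because the same 9 livers chose these genes, these counts describe the calls and do not test them. The median log2 fold change was 2.03 among the genes called higher and -1.73 among those called lower, against 0.04 over all genes tested.

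By size of change among the called genes without overlap between groups, the 10 largest rises included those of *Gpnmb*, *Cd14*, *Shc2*, *Clec4e*, *Cd63*, *Cxcl13*, *Spon1*, *Tnfrsf12a* and *Gm6166*. The rule also asked for a mean of at least 1 CPM over the 9 livers. *Gpnmb*, *Shc2*, *Clec4e*, *Spon1* and *Gm6166* reached it only through GB-IL, with DIO means of 0.37, 0.083, 0.114, 0.758 and 0.25 CPM. Their place in this ranking follows in part from the rule, and folds over such low levels are imprecise. *Cd63*, which encodes a tetraspanin of lysosomes and secretory vesicles, had 98.2, 117, 16.9 and 4.46 CPM in GB-IL livers 1 to 4 and 3.61, 2.12, 3.87, 2.77 and 3.12 CPM in DIO livers 1 to 5 (log2 fold change 4.25, standard error 0.935, edgeR adjusted p = 0.0314). *Tnfrsf12a*, the receptor of the cytokine TWEAK, had 101.3, 60.03, 4.24 and 4.06 CPM against 3.4, 2.85, 2.8, 3.96 and 3.6 CPM (log2 fold change 3.67, standard error 0.848, edgeR adjusted p = 0.034). In both genes livers 1 and 2 were far above the DIO range and liver 4 was just above its top, as was liver 3 in *Tnfrsf12a*.

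The 10 largest falls under the same rule were those of *Hcn3*, *2610305D13Rik*, *Spag4*, *Aatk*, *Serpine2*, *Spsb4*, *Celsr1*, *Alas2*, *Caln1* and *Tle2*. *2610305D13Rik*, *Spag4* and *Spsb4* reached the mean of 1 CPM only through DIO, with GB-IL means of 0.356, 0.307 and 0.95 CPM. *Alas2*, the erythroid enzyme that starts haem synthesis, had 14.1, 35.6, 59.3 and 85.7 CPM in GB-IL livers 1 to 4 and 139, 206, 149.6, 143 and 117 CPM in DIO livers 1 to 5 (log2 fold change -1.63, standard error 0.416, edgeR adjusted p = 0.0458). Of 7 erythroid genes 6 had a negative sign and *Alas2* alone passed, against 0.112% of all genes lower. The median of the list was -1.16, 0.86, -0.61 and -2.88 log2 units from the DIO mean in GB-IL livers 1 to 4 and ranged from -2.08 to 1.49 among the DIO livers. *Tle2*, a transcriptional co-repressor, had 4.15, 6.5, 5.72 and 7.49 CPM against 11.9, 15.1, 12.7, 12.1 and 11.2 CPM, a small and even difference (log2 fold change -1.08, standard error 0.215, edgeR adjusted p = 0.0278). *Celsr1*, a cadherin of planar cell polarity, had 3.41, 4.35, 12.6 and 9.22 CPM against 19.9, 23.1, 18.9, 28.1 and 32.9 CPM (log2 fold change -1.72, edgeR adjusted p = 0.0352). The 16 genes called lower held no enzyme of bile acid, fatty acid or drug metabolism from the lists described here. One of the 16, *Pfkm*, the muscle isoform of phosphofructokinase, was chosen for mention after its values were seen (log2 fold change -0.56, edgeR adjusted p = 0.0426).

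Of the hepatocyte lists, the acute phase proteins held the most called genes. Of 21 acute phase genes, all tested, 11 rose, 0 fell and 10 did not pass, against 3.15% of all genes higher, and the median log2 fold change was 2.37 against 0.04 over all genes. The 11 were the serum amyloids *Saa1*, *Saa2* and *Saa3*, the orosomucoids *Orm1* and *Orm2*, *Lcn2* (lipocalin-2, which binds bacterial siderophores), *Hp* (haptoglobin), *Apcs* (serum amyloid P), *Serpina3n*, *Itih3* and *Cp* (ceruloplasmin). *Lcn2* (ENSMUSG00000026822; GRCm38 chr2:32384633-32388252) had 3182, 4465, 3300 and 16.6 CPM in GB-IL livers 1 to 4 and 33.3, 9.2, 56, 17.3 and 57.9 CPM in DIO livers 1 to 5 (log2 fold change 6.30, standard error 1.23, edgeR adjusted p = 0.0278). *Saa3* had 102, 137, 220.5 and 4.83 CPM against 9.16, 5.07, 9.67, 6.56 and 8.6 CPM (log2 fold change 3.89, standard error 0.662, edgeR adjusted p = 0.0278). *Orm1* had 6193, 8315, 6606 and 406 CPM against 808, 388, 938, 353 and 478 CPM (log2 fold change 3.18, standard error 0.609, edgeR adjusted p = 0.0278). In all 3 genes livers 1 to 3 lay far above the highest DIO liver, and liver 4 lay inside the DIO range or, in *Saa3*, below it. *Saa1* was highest in liver 3, with 1888, 2109, 14860 and 71.6 CPM in GB-IL livers 1 to 4 and 135, 30.2, 161, 77.6 and 358 CPM in DIO livers 1 to 5 (log2 fold change 4.96, edgeR adjusted p = 0.0297).

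The acute phase genes moved together in 3 livers, as the median of the list lay 3.15, 2.66, 2.84 and -0.48 log2 units from the DIO mean in GB-IL livers 1 to 4 and between -0.54 and 0.35 in the DIO livers. The groups overlapped in each of the 21 genes, whereas GB-IL lay entirely above DIO in 2.67% of all genes. Without GB-IL liver 1 the median log2 fold change was 2.10. Summed over the list, these genes took 66860, 64730, 102100 and 9757 CPM in GB-IL livers 1 to 4 and between 9982 and 15520 CPM in DIO. *Saa1* and *Saa2*, *Orm1*, *Orm2* and *Orm3*, and *Serpina3m* and *Serpina3n* are near-identical relatives, so the split of reads within each family is uncertain. Members that did not pass include *Crp* (C-reactive protein, which is a weak acute phase protein in mice) at a log2 fold change of -0.25 and the metallothioneins *Mt1* and *Mt2* at 3.23 and 3.26 (edgeR adjusted p = 0.0636 and 0.0841).

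Because these genes moved together, the DNA before their start sites is shown for 3 of them. The sequences are the 250 bases upstream of the RefSeq start on GRCm38.p6, 5′ to 3′ on the strand of the gene, for *Saa1* (chr7:46742981-46743230, minus strand), *Saa3* (chr7:46715677-46715926, minus strand) and *Lcn2* (chr2:32387740-32387989, minus strand). Capitals mark matches to TTGCNNAA, letters of the core bound by C/EBP factors, on either strand.
Saa1: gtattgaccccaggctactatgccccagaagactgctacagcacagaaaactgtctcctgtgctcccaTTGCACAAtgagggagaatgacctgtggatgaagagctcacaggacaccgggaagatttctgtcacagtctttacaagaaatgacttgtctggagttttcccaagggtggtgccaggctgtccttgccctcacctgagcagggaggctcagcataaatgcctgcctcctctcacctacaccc
Saa3: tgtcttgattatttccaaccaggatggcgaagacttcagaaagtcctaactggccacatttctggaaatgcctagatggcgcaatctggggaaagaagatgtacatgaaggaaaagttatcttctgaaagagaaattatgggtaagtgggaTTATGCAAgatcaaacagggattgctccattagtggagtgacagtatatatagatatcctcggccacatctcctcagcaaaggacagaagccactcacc
Lcn2: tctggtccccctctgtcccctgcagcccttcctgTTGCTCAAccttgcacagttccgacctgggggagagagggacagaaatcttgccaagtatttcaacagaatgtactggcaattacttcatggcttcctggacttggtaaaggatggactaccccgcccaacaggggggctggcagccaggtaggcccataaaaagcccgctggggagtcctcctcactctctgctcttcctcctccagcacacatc
The first capital lies 182, 99 and 216 bases before the RefSeq start of *Saa1*, *Saa3* and *Lcn2*. The GENCODE annotation places other starts for *Saa3* and *Lcn2*. The stretch shown for *Lcn2* lies wholly inside the gene span given above. That of *Saa3* overlaps the end of its GENCODE span, at 46715700. These letters occurred in the upstream 250 bases of 6 of the 9 risen acute phase genes that the table holds, of 3 of the 7 others it holds, and of 10.8% of all 27025 genes in it. The NF-κB motif searched occurred in 1 of the 9 and in 1.65% of all genes. The letters TTCNNNGAA, with the spacing of a STAT site, occurred in 1 of the 9 and in 8.13%. A match describes letters and shows no binding, and the letters were chosen after looser and stricter forms had been tried on the same genes.

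A further list, of secreted plasma proteins, showed no common direction. Of 29 secreted proteins tested, 5 rose and 0 fell, against 3.15% of all genes higher. The median log2 fold change was 0.07. *Hpx* (hemopexin, which binds free haem) had 23040, 38220, 26100 and 3660 CPM in GB-IL livers 1 to 4 and 5185, 2596, 5062, 3405 and 3276 CPM in DIO livers 1 to 5 (log2 fold change 2.54, standard error 0.516, edgeR adjusted p = 0.0278). Livers 1 to 3 were far above the DIO range and liver 4 was inside it, as in the acute phase genes *Lcn2* and *Orm1*. *Pros1* (protein S, an anticoagulant cofactor) had 220.1, 119, 125 and 61.3 CPM against 62.5, 62.9, 51.1, 47.1 and 48.3 CPM (log2 fold change 1.27, edgeR adjusted p = 0.031). The other 3 that rose were *Igfbp1*, which binds insulin-like growth factors, *Fgb* (fibrinogen beta) and *Kng1* (kininogen), at log2 fold changes of 5.99, 1.57 and 1.49. *Igfbp1* was uneven, with 10220, 5514, 150 and 56.6 CPM in GB-IL livers 1 to 4. *Ttr* (transthyretin), a protein that falls in an acute phase response, had 1607, 2186, 3742 and 6014 CPM against 7841, 5696, 9294, 8101 and 7972 CPM and did not pass (log2 fold change -1.20, edgeR adjusted p = 0.0816), although livers 1 to 3 lay below every DIO liver.

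**Figure D2:**
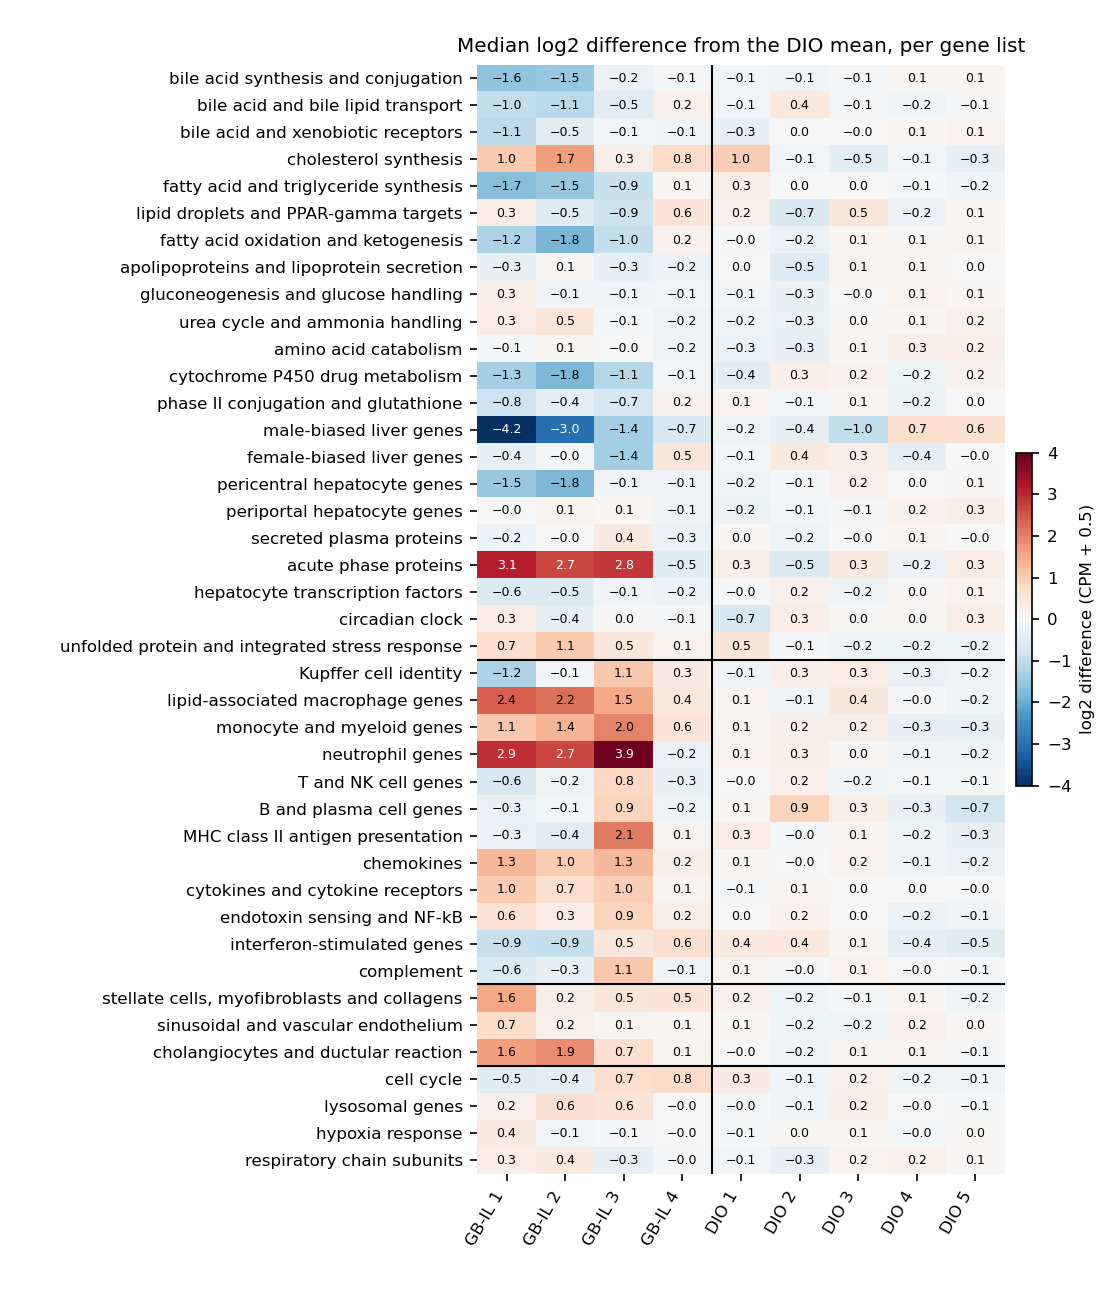
Each cell gives the median, over the tested members of a gene list, of the log2 difference of a liver from the mean of the DIO livers (log2 of CPM + 0.5; red higher, blue lower). GB-IL livers 1, 2 and 3 show the acute phase proteins at 3.1, 2.7 and 2.8, while GB-IL liver 4, at -0.5, lies with the DIO livers.

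Transcription factors of hepatocytes were lower on average by small amounts. Of 14 tested, 0 passed, 12 had a negative sign, and 5 had an unadjusted p below 0.05 for lower expression, against 6.43% of all genes. *Hnf4a*, the best known regulator of hepatocyte identity, had 764, 632, 614 and 585 CPM in GB-IL livers 1 to 4 and 706, 604, 522, 803 and 837 CPM in DIO livers 1 to 5, with all GB-IL livers inside the DIO range (log2 fold change -0.10, edgeR adjusted p = 0.782). *Onecut1* (HNF6) had a log2 fold change of -2.77 (edgeR adjusted p = 0.0803), with 0.368, 0.565, 2.8 and 1.77 CPM against 5.86, 33.3, 1.78, 4.07 and 2.79 CPM, and DIO liver 2 stood far above all other livers.

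Genes of bile acid synthesis leaned lower without passing the test. Of 14 synthesis and conjugation genes, 0 were called, 13 had a negative sign, and the median log2 fold change was -0.67 (-0.38 without GB-IL liver 1). At an unadjusted p below 0.05, 2 of the 14 were lower, against 6.43% of all genes. The lean was largest in 2 livers, as the median of the list was -1.60, -1.53, -0.24 and -0.05 log2 units from the DIO mean in GB-IL livers 1 to 4 and between -0.14 and 0.07 in the DIO livers. *Cyp7a1*, the rate-limiting enzyme of bile acid synthesis (ENSMUSG00000028240; GRCm38 chr4:6265612-6275633), had 2.84, 15.6, 221 and 123 CPM in GB-IL livers 1 to 4 and 56.9, 163, 90.2, 231 and 169 CPM in DIO livers 1 to 5 (log2 fold change -0.65, standard error 0.886, edgeR adjusted p = 0.658). Livers 1 and 2 were far below every DIO liver, and livers 3 and 4 were inside the DIO range. *Cyp8b1*, which makes cholic acid, had 347, 78.4, 57.2 and 505 CPM against 500.3, 174, 259, 519.6 and 524 CPM (log2 fold change -0.68, edgeR adjusted p = 0.493). Here livers 2 and 3, not 1 and 2, lay below the DIO range. *Cyp7b1*, of the alternative pathway, had a log2 fold change of -1.33 (edgeR adjusted p = 0.191).

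Transporters and receptors gave a like picture. Of 14 transporter genes tested, 0 passed and 12 had a negative sign (median log2 fold change -0.48). *Abcb11*, the bile salt export pump, had 15.5, 38.1, 369 and 467 CPM in GB-IL livers 1 to 4 and 602, 609, 366, 372 and 367 CPM in DIO livers 1 to 5, very low in livers 1 and 2 only (log2 fold change -1.06, standard error 0.715, edgeR adjusted p = 0.363). The 2 transporter genes of positive sign were *Slco1a4*, an uptake carrier of organic anions, and *Abcc4*, a basolateral exporter of bile salts. *Slco1a4* had 318, 183, 28 and 98.8 CPM against 41.9, 54.8, 45.6, 22.5 and 29.6 CPM, with liver 3 inside the DIO range, and did not pass (log2 fold change 2.01, standard error 0.55, edgeR adjusted p = 0.0586). *Abcc4* had 7.88, 6.55, 2.93 and 2.62 CPM against 1.83, 2.41, 1.98, 2.21 and 2.16 CPM and no overlap, but it did not pass (log2 fold change 1.23, standard error 0.339, edgeR adjusted p = 0.0598). *Nr0b2*, the FXR target SHP, had 3.83, 3.61, 26.7 and 37.2 CPM against 48.9, 7.13, 23.8, 13.8 and 17.5 CPM, below the DIO range in livers 1 and 2 only (log2 fold change -0.31, edgeR adjusted p = 0.792). Of 8 receptor genes tested 0 passed, and the median log2 fold change was -0.45.

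Fatty acid oxidation and ketogenesis leaned lower in livers 1 to 3. Of 22 genes, 0 passed, 21 had a negative sign and 9 had an unadjusted p below 0.05 for lower expression (6.43% of all genes did), with a median log2 fold change of -0.81. The median of the list was -1.22, -1.82, -1.0 and 0.18 log2 units from the DIO mean in GB-IL livers 1 to 4 and between -0.23 and 0.11 in DIO. Without GB-IL liver 1 the median log2 fold change was -0.63, and without GB-IL liver 4 it was -1.43 and 17 of the 22 passed, against 9.27% of all genes lower. *Acot1*, an acyl-CoA thioesterase, had 4.88, 7.91, 4.5 and 19 CPM in GB-IL livers 1 to 4 and 16.9, 19.3, 33, 55.5 and 48 CPM in DIO livers 1 to 5 (log2 fold change -1.92, standard error 0.523, edgeR adjusted p = 0.058). *Acaa2*, the mitochondrial thiolase, had 363, 491, 653 and 845 CPM against 959, 850, 1334, 1368 and 1231 CPM and no overlap between the groups (log2 fold change -0.97, standard error 0.264, edgeR adjusted p = 0.0586). *Ppara*, the receptor that drives this programme in fasting, had 28.6, 11.9, 31.9 and 112 CPM against 61.3, 163, 58.7, 61.7 and 106 CPM, low in livers 1 to 3 (log2 fold change -0.96, edgeR adjusted p = 0.287). *Cpt1a*, which brings long-chain fatty acids into mitochondria, had 559, 282, 388 and 652 CPM against 454, 509, 498, 586 and 641 CPM, below the DIO range in livers 2 and 3 and above it in liver 4 (log2 fold change -0.19, edgeR adjusted p = 0.668).

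Fatty acid and triglyceride synthesis leaned the same way in the same livers. Of 20 genes, 0 passed, 18 had a negative sign and 5 had an unadjusted p below 0.05 for lower expression (6.43% of all genes did), with a median log2 fold change of -0.69. The median was -0.38 when GB-IL liver 1 was left out. With GB-IL liver 4 left out instead it was -1.37, and 10 of the 20 fell, against 9.27% of all genes. Summed over the list, the CPM were 2228, 2153, 4835 and 16250 in GB-IL livers 1 to 4 and between 6932 and 17220 in DIO. *Fasn*, fatty acid synthase, had 207, 219.7, 132 and 394 CPM in GB-IL livers 1 to 4 and 682, 404, 315, 378 and 247 CPM in DIO livers 1 to 5 (log2 fold change -0.77, standard error 0.448, edgeR adjusted p = 0.303). *Scd1*, the stearoyl-CoA desaturase, had 71, 175, 1744 and 9532 CPM against 10610, 4620, 6385, 1803 and 1656 CPM, where livers 1 and 2 lay below the DIO range and livers 3 and 4 inside its wide spread (log2 fold change -0.80, edgeR adjusted p = 0.646). *Dgat2*, of triglyceride assembly, and *Mlxipl*, which encodes the carbohydrate sensor ChREBP, had log2 fold changes of -0.94 and -1.37 (edgeR adjusted p = 0.0962 and 0.0962). The lipid droplet list had 1 gene higher of 16 (*Lpl*), against 3.15% of all genes. *Plin2*, which coats lipid droplets, had 528, 311, 201 and 719 CPM against 775, 338, 629, 374 and 449.6 CPM (log2 fold change -0.22, edgeR adjusted p = 0.725).

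Of 18 apolipoprotein and lipoprotein secretion genes 0 passed, with 7 of positive sign and a median log2 fold change of -0.10. Cholesterol synthesis genes leaned higher. Of 23 genes, 22 had a positive sign, 7 had an unadjusted p below 0.05 (16.7% of all genes were higher by that rule) and 0 passed the FDR, with a median log2 fold change of 0.72. The list was not clear of the control group, because DIO liver 1 had a median of 0.99 log2 units above the DIO mean, while GB-IL livers 1 to 4 lay at 1.04, 1.67, 0.26 and 0.75. *Sqle*, squalene epoxidase, had 139, 186, 72 and 69.4 CPM in GB-IL livers 1 to 4 and 86.6, 22.1, 9.87, 24.8 and 18.5 CPM in DIO livers 1 to 5 (log2 fold change 1.85, standard error 0.579, edgeR adjusted p = 0.0892). In *Sqle* DIO liver 1 lay above GB-IL livers 3 and 4. The same DIO liver was also high in *Hspa5*, the endoplasmic reticulum chaperone BiP, at 1575 CPM against 382 to 605 CPM in the other DIO livers.

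Calls in glucose and nitrogen metabolism were near the share over all genes, where 3.15% rose. Of 20 genes of glucose handling 1 rose, *Hk2* (hexokinase 2, low in normal liver), with 10.1, 2.65, 6.91 and 2.73 CPM against 1.36, 1.77, 1.73, 1.41 and 0.913 CPM (log2 fold change 1.96, standard error 0.504, edgeR adjusted p = 0.048). *Pck1*, the first committed enzyme of gluconeogenesis, had 5139, 3792, 3786 and 2815 CPM in GB-IL livers 1 to 4 and 2470, 1547, 1777, 2997 and 3190 CPM in DIO livers 1 to 5, above the DIO range in livers 1 to 3, and did not pass (log2 fold change 0.70, edgeR adjusted p = 0.175). *Pklr*, liver pyruvate kinase, had 3.68, 6.44, 64.3 and 194 CPM against 233, 413, 264, 358 and 334 CPM, with every GB-IL liver below every DIO liver (log2 fold change -2.25, standard error 0.82, edgeR adjusted p = 0.13). Of 26 genes of amino acid catabolism 1 rose, *Sdsl* (serine dehydratase-like), at 116, 115, 16.3 and 5.98 CPM against 7.22, 4.77, 8.09, 12.4 and 12.7 CPM (log2 fold change 2.81, standard error 0.695, edgeR adjusted p = 0.0422). *Tat*, the tyrosine aminotransferase induced by glucocorticoid, had 11070, 4269, 2306 and 1325 CPM against 1446, 539, 852, 1777 and 2385 CPM (log2 fold change 1.76, edgeR adjusted p = 0.0829). Of 11 genes of the urea cycle and ammonia handling 0 passed. *Arg1* and *Asl* had log2 fold changes of 0.87 and 1.46 (edgeR adjusted p = 0.131 and 0.171). Both were above the DIO range in livers 1 and 2, and *Arg1* was also above it in liver 3.

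Stress of the endoplasmic reticulum and shortage of amino acids are read through genes such as *Asns*, *Atf3* and *Ddit3*. Of 22 genes of the unfolded protein and integrated stress responses, 2 rose and 0 fell, against 3.15% of all genes higher, and the median log2 fold change was 0.53. *Asns*, asparagine synthetase, had 43.1, 91.1, 18.3 and 0.295 CPM in GB-IL livers 1 to 4 and 1.47, 1.67, 1.12, 1.07 and 0.433 CPM in DIO livers 1 to 5 (log2 fold change 5.04, standard error 0.94, edgeR adjusted p = 0.0278). Livers 1 to 3 were far above every DIO liver and liver 4 was below every DIO liver. *Atf3* had 10.6, 6.38, 2.5 and 1.62 CPM against 0.942, 1.13, 1.02, 0.396 and 0.673 CPM (log2 fold change 2.65, standard error 0.627, edgeR adjusted p = 0.0365). *Ddit3* (CHOP) did not pass, with 6.25, 28.8, 6.53 and 8.96 CPM against 17.3, 6.05, 8.96, 5.66 and 6.15 CPM (log2 fold change 0.51, edgeR adjusted p = 0.489). *Hspa5* did not pass either (log2 fold change 0.80, edgeR adjusted p = 0.277).

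Cytochrome P450 and male-biased genes had 0 calls. Of 13 cytochrome P450 genes 8 had a negative and 5 a positive sign, with a median log2 fold change of -0.75. At an unadjusted p below 0.05, 4 were lower and 1 higher (6.43% and 16.7% of all genes). The median of the list was -1.32, -1.81, -1.13 and -0.11 log2 units from the DIO mean in GB-IL livers 1 to 4. It lay between -0.43 and 0.28 in the DIO livers. *Cyp3a13*, the P450 gene of smallest p, had 594, 356, 397 and 170.1 CPM in GB-IL livers 1 to 4 and 195, 189, 225, 164 and 242 CPM in DIO livers 1 to 5, above the DIO range in livers 1 to 3 (log2 fold change 0.90, edgeR adjusted p = 0.104). *Cyp2e1*, a pericentral P450, had 2635, 1240, 8446 and 7675 CPM in GB-IL livers 1 to 4 and 6263, 8589, 8308, 9246 and 9579 CPM in DIO livers 1 to 5, low in livers 1 and 2 (log2 fold change -0.75, edgeR adjusted p = 0.392). Of 14 pericentral genes 13 had a negative sign (median -0.70), whereas 6 of 14 periportal genes did (median 0.18). Genes of phase II metabolism and glutathione handling leaned lower, with 13 of 20 of negative sign and a median log2 fold change of -0.42. At an unadjusted p below 0.05, 4 were lower and 3 higher (6.43% and 16.7% of all genes). Without GB-IL liver 4, 8 of the 20 were called lower and 2 higher (9.27% and 15.4% of all genes). With every liver kept 0 fell and 1 of 20 rose, near the share of 3.15% over all genes. It was *Hmox1* (haem oxygenase 1), at 183, 88.4, 105 and 34.5 CPM against 28.5, 28.3, 34.3, 24.4 and 35.7 CPM (log2 fold change 1.76, standard error 0.442, edgeR adjusted p = 0.0437). All 11 male-biased genes had a negative sign, with a median log2 fold change of -2.22, and 0 passed. At an unadjusted p below 0.05, 5 of the 11 were lower, against 6.43% of all genes. *Elovl3*, a male-biased fatty acid elongase, had 0.998, 0.508, 18.7 and 90.6 CPM against 381, 68, 52.4, 99 and 95.8 CPM (log2 fold change -2.33, standard error 1.27, edgeR adjusted p = 0.274). The DIO livers themselves differed widely in this list, as *Hsd3b5* ran from 0.71 to 119 CPM among them. Female-biased genes showed no common direction, as 6 of the 13 tested had a positive and 7 a negative sign. Their median log2 fold change was -0.22, and -1.52 without GB-IL liver 4. Of the 13, 1 rose (3.15% of all genes did), *Sult1e1*, the oestrogen sulfotransferase. *Sult1e1* had 97.4, 441, 3.9 and 0.627 CPM against 0.262, 0.344, 0.254, 0.566 and 1.2 CPM (log2 fold change 7.99, standard error 1.59, edgeR adjusted p = 0.0278). *Cux2*, a female-biased transcription factor, was raised in livers 1 and 2 only, at 25.4, 19.4, 0.212 and 0.443 CPM against 0.209, 1.03, 0.509, 0.283 and 0.865 CPM, and did not pass (log2 fold change 4.26, edgeR adjusted p = 0.126).

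**Figure D3:**
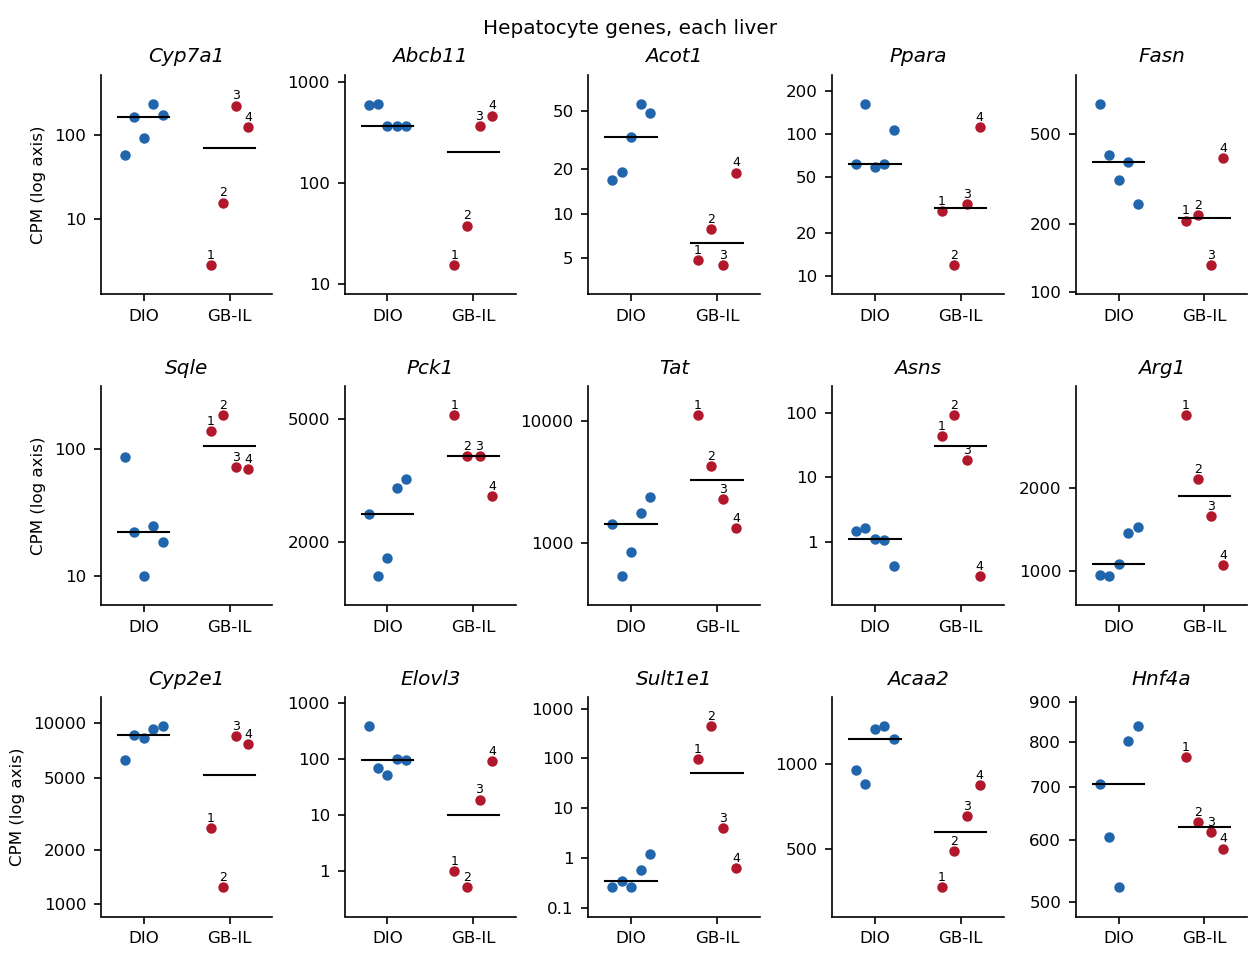
CPM of 15 hepatocyte genes on log axes, with a point for each liver (DIO blue, GB-IL red and numbered by liver) and a bar at the group median. GB-IL livers 1 and 2 lie far from DIO in *Cyp7a1*, *Abcb11*, *Elovl3* and *Sult1e1*, whereas GB-IL liver 4 lies within or near the DIO points in most panels.

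Calls among immune genes lay mainly in the myeloid lists. Of 25 monocyte and myeloid genes, all tested, 13 rose and 0 fell, against 3.15% of all genes higher. All 25 had a positive sign, and the median log2 fold change was 1.42 (1.59 without GB-IL liver 1). The count filter can keep a gene near 0 in DIO because other livers hold its reads. *Clec4d* and *Clec4e*, called here, and *Gpnmb*, called among the macrophage genes, had DIO means of 0.249, 0.114 and 0.37 CPM. Such genes could be called higher but had little room to be called lower. This limits the counts and medians of this list and of the immune lists below. *Itgam* (CD11b) had 12.1, 7.74, 13.5 and 1.92 CPM in GB-IL livers 1 to 4 and 1.47, 2.66, 0.763, 0.792 and 0.721 CPM in DIO livers 1 to 5 (log2 fold change 2.77, standard error 0.695, edgeR adjusted p = 0.0433). *Clec4e* (Mincle), a receptor for mycobacterial glycolipid and dead cells, had 5.99, 0.734, 4.83 and 0.48 CPM against 0.0523, 0.295, 0.0509, 0.17 and 0 CPM, a low level at which the fold is imprecise (log2 fold change 4.66, standard error 0.809, edgeR adjusted p = 0.0278). *Ccr2*, the receptor of recruited monocytes, did not pass, with 0.578, 0.678, 9.59 and 3.32 CPM against 2.04, 2.02, 1.68, 0.849 and 0.865 CPM, below the DIO range in livers 1 and 2 and above it in livers 3 and 4 (log2 fold change 1.25, edgeR adjusted p = 0.239). *Ctss* (cathepsin S), the called gene of antigen presentation, had 195, 158, 180.5 and 62.8 CPM against 44.9, 45.2, 48.2, 36.5 and 38 CPM, with liver 4 also above every DIO liver (log2 fold change 1.81, standard error 0.28, edgeR adjusted p = 0.0278).

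Genes of lipid-associated macrophages rose in 11 of 18 (3.15% of all genes), with 0 lower and a median log2 fold change of 1.96 (1.79 without GB-IL liver 1). In 6 of the 18 GB-IL lay entirely above DIO, against 2.67% of all genes. *Spp1* (osteopontin) had 286, 216, 205 and 49.5 CPM in GB-IL livers 1 to 4 and 55.3, 25.1, 39.5, 31.5 and 33.3 CPM in DIO livers 1 to 5, where liver 4 fell inside the DIO range (log2 fold change 2.36, standard error 0.366, edgeR adjusted p = 0.0278). *Trem2*, the lipid-sensing receptor that defines these cells, had 14, 21.2, 4.11 and 2.58 CPM against 2.72, 1.97, 4.58, 1.07 and 1.92 CPM, and livers 3 and 4 were inside the DIO range (log2 fold change 2.09, standard error 0.532, edgeR adjusted p = 0.0459). *Cd68* had 38.1, 46, 40.4 and 17.3 CPM against 11.5, 14.4, 19.3, 14.4 and 10.7 CPM (log2 fold change 1.33, edgeR adjusted p = 0.0297). Of 29 lysosomal genes 5 rose (3.15% of all genes did), *Ctss*, *Cd68*, *Ctsl*, *Cd63* and *Atp6v0d2*, of which *Cd68* and *Cd63* also stand in the macrophage list.

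Of 14 Kupffer cell genes 2 rose, *Marco* and *Spic*, against 3.15% of all genes, and the median log2 fold change was 0.35. GB-IL lay entirely above DIO in 2 of the 14, against 2.67% of all genes. *Clec4f*, which is specific to Kupffer cells, had 42.2, 169.5, 280.3 and 141 CPM in GB-IL livers 1 to 4 and 155, 144, 202, 161 and 129 CPM in DIO livers 1 to 5, lowest in liver 1 and highest in liver 3 (log2 fold change 0.0015, standard error 0.386, edgeR adjusted p = 0.998). *Vsig4*, a complement receptor of these cells, had 29.5, 55.4, 77.8 and 45 CPM against 31.4, 39.2, 39.4, 27.1 and 26.6 CPM (log2 fold change 0.67, edgeR adjusted p = 0.171). *Marco*, a scavenger receptor, had 144, 138, 542 and 109 CPM against 12.8, 58.8, 35.1, 13.3 and 13.5 CPM, without overlap (log2 fold change 3.13, standard error 0.799, edgeR adjusted p = 0.0461).

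Of the immune lists, neutrophil genes had the highest median. Of 20 genes 15 had enough counts, 10 of these rose (3.15% of all genes did), and the median log2 fold change was 4.95 (4.22 without GB-IL liver 1). *S100a8*, a calprotectin subunit, had 34.8, 14.2, 86.8 and 0.369 CPM in GB-IL livers 1 to 4 and 1.57, 0.935, 1.02, 0.792 and 0.625 CPM in DIO livers 1 to 5 (log2 fold change 5.10, standard error 1.22, edgeR adjusted p = 0.0365). *S100a9*, the other subunit, had 51.7, 21.3, 149 and 1.07 CPM against 2.41, 2.02, 0.916, 1.3 and 1.01 CPM (log2 fold change 5.18, edgeR adjusted p = 0.0343). The 5 genes that were too low to be tested were not all silent, since *Mpo*, *Elane* and *Camp* of granule-forming precursors had 895, 334 and 530 counts over the 4 GB-IL livers against 7, 7 and 1 over the 5 DIO livers. Of those counts 886, 322 and 523 lay in GB-IL liver 3, which was also the highest for *S100a8*, *S100a9*, *Saa1* and *Marco*. *Lcn2* stands in this list and in the acute phase list.

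Sensors of bacterial products and NF-κB genes rose in 8 of 30 (3.15% of all genes), with 0 lower and a median log2 fold change of 0.75. *Tlr2*, which senses bacterial lipoprotein, had 13.5, 6.72, 19.2 and 4.65 CPM in GB-IL livers 1 to 4 and 3.45, 5.31, 4.02, 1.87 and 1.78 CPM in DIO livers 1 to 5 (log2 fold change 1.74, standard error 0.405, edgeR adjusted p = 0.0343). *Tlr4*, the endotoxin receptor itself, did not pass, at 1.68, 2.09, 2.63 and 3.25 CPM against 2.2, 3, 1.48, 1.02 and 1.3 CPM (log2 fold change 0.43, edgeR adjusted p = 0.436). *Tlr13*, a sensor of bacterial ribosomal RNA, had 12.6, 9.21, 9.46 and 4.87 CPM against 2.77, 2.71, 2.65, 2.43 and 2.26 CPM without overlap (log2 fold change 1.81, standard error 0.3, edgeR adjusted p = 0.0278).

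Among 23 cytokine and receptor genes tested 5 rose, against 3.15% of all genes, namely *Il1b*, *Il1rn*, *Socs3*, *Csf2rb* and *Csf2rb2*, the last pair being near-identical. *Il1b* had 13.9, 19.9, 12 and 3.06 CPM in GB-IL livers 1 to 4 and 1.47, 2.85, 2.85, 1.58 and 1.68 CPM in DIO livers 1 to 5, without overlap (log2 fold change 2.54, standard error 0.45, edgeR adjusted p = 0.0278). *Tnf* had too few counts to be fitted, with 51 in GB-IL and 22 in DIO, and the test on its CPM did not pass (exact two-sided permutation test, p = 0.444, where 0.0159 is the smallest that 4 livers against 5 allow). Of 13 chemokines tested 5 rose, against the same 3.15%, namely *Cxcl13*, *Cxcl16*, *Ccl3*, *Ccl6* and *Ccl9*. *Cxcl16* had 22.3, 38.1, 30.9 and 10.6 CPM against 8.85, 7.72, 11.9, 8.2 and 6.87 CPM (log2 fold change 1.55, standard error 0.298, edgeR adjusted p = 0.0278). *Ccl2* had 2.89, 0.96, 1.99 and 0.849 CPM against 0.68, 0.541, 0.611, 0.283 and 0.529 CPM, without overlap but with no call (log2 fold change 1.64, edgeR adjusted p = 0.0883).

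Complement genes rose in 5 of 25 (3.15% of all genes), with a median log2 fold change of 0.05 (0.20 without GB-IL liver 1). The 5 were *C1qb* and *C1qc*, which macrophages make, the anaphylatoxin receptors *C3ar1* and *C5ar1*, and *C7*. *C3ar1* had 9.66, 9.54, 10.6 and 8.12 CPM in GB-IL livers 1 to 4 and 3.4, 5.46, 4.63, 3.34 and 3.37 CPM in DIO livers 1 to 5 (log2 fold change 1.23, standard error 0.246, edgeR adjusted p = 0.0278), nearly as high in liver 4 as in the others. *C3* itself, made by hepatocytes, had 13210, 20050, 23060 and 4517 CPM against 7608, 7856, 8290, 6247 and 6567 CPM, raised in livers 1 to 3 and below the DIO range in liver 4 (log2 fold change 1.06, edgeR adjusted p = 0.114). *C7* was high in GB-IL liver 1 alone, at 12.2 CPM against 1.64 to 2.95 CPM in GB-IL livers 2 to 4, and its log2 fold change was 2.12 with this liver and 1.03 without it.

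**Figure D4:**
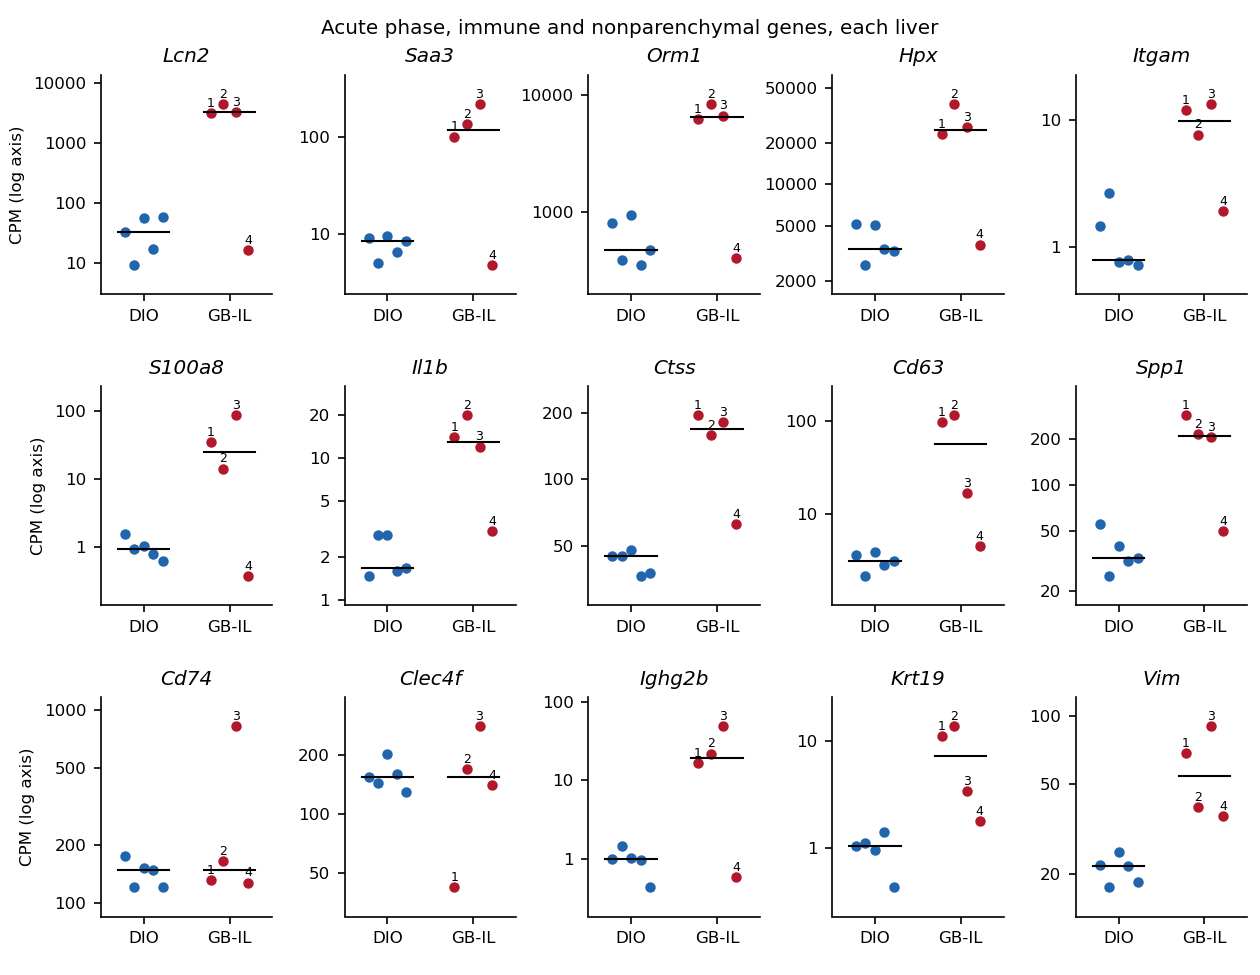
CPM of 15 acute phase, immune and nonparenchymal genes on log axes, with a point for each liver (DIO blue, GB-IL red and numbered by liver) and a bar at the group median. GB-IL livers 1 to 3 stand above all DIO livers in *Lcn2*, *Saa3*, *Orm1* and *Il1b*, GB-IL liver 3 stands alone in *Cd74*, and the groups overlap in *Clec4f*.

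Lymphocyte genes split between immunoglobulins and the rest. Of 13 B and plasma cell genes tested 3 rose (3.15% of all genes did), all of them immunoglobulin genes (*Ighg2b*, *Igha* and *Igkc*), whose reads can be shared between near-identical segments. *Ighg2b* had 16.6, 22, 49 and 0.59 CPM in GB-IL livers 1 to 4 and 0.994, 1.48, 1.02, 0.962 and 0.433 CPM in DIO livers 1 to 5 (log2 fold change 4.49, standard error 0.822, edgeR adjusted p = 0.0278). *Igkc*, the kappa light chain, had 103, 88.6, 167 and 8.12 CPM against 7.01, 22.4, 22.1, 9.51 and 3.56 CPM (log2 fold change 2.83, edgeR adjusted p = 0.0343). Of 15 T and NK cell genes tested, 0 passed, with 2 higher and 1 lower at an unadjusted p below 0.05 (16.7% and 6.43% of all genes). *Cd8a* had 0, 0, 20 and 9 counts in GB-IL livers 1 to 4 and 5 to 12 in the DIO livers (exact two-sided permutation test, p = 0.603).

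GB-IL liver 3 differed from livers 1 and 2 in antigen presentation. Of 13 MHC class II genes tested 1 rose (3.15% of all genes did), *Ctss*. The median of the list was -0.26, -0.45, 2.08 and 0.10 log2 units from the DIO mean in GB-IL livers 1 to 4. *Cd74*, the invariant chain, had 130.5, 164, 819 and 127 CPM in GB-IL livers 1 to 4 and 174, 119.8, 152, 147 and 121 CPM in DIO livers 1 to 5 (log2 fold change 1.12, edgeR adjusted p = 0.196). *H2-Aa*, a class II chain, had 36.2, 25.1, 239 and 48.9 CPM against 65.4, 43.2, 43.4, 44 and 36.3 CPM (log2 fold change 0.91). Interferon-stimulated genes, of which 0 of 24 passed, lay -0.93, -0.95, 0.46 and 0.62 log2 units from the DIO mean in GB-IL livers 1 to 4, so that livers 1 and 2 were below and livers 3 and 4 above the DIO livers, which ran from -0.49 to 0.43. With GB-IL liver 1 left out the number with a positive sign went from 9 to 18 of 24.

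Bile duct cell genes rose in 5 of 16 tested (3.15% of all genes), with 0 lower and a median log2 fold change of 1.42 (1.22 without GB-IL liver 1). They were the keratins *Krt7*, *Krt18* and *Krt19*, the mucin *Muc1* and *Spp1*, which macrophage lists also hold. *Krt19* had 11.1, 13.7, 3.39 and 1.81 CPM in GB-IL livers 1 to 4 and 1.05, 1.13, 0.967, 1.41 and 0.433 CPM in DIO livers 1 to 5, without overlap (log2 fold change 2.90, standard error 0.506, edgeR adjusted p = 0.0278). *Epcam*, of bile duct and progenitor cells, had 9.19, 11, 1.61 and 1.18 CPM against 2.04, 0.787, 1.27, 1.41 and 1.25 CPM, high in livers 1 and 2 (log2 fold change 2.08, edgeR adjusted p = 0.051). Genes of the acinar pancreas, whose ducts also express keratins, were high in GB-IL liver 1 as given above, and their part in this list was tested only by the median without that liver. Of 3 tested genes of intestine and gallbladder epithelium 1 rose (3.15% of all genes did), *Tff3* (trefoil factor 3, a product of mucous epithelia), given after its values were seen. *Tff3* had 41.9, 70.9, 15.9 and 0.516 CPM against 1.68, 0.197, 0.153, 1.53 and 0.721 CPM (log2 fold change 5.24, standard error 1.11, edgeR adjusted p = 0.0297).

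Stellate cell, myofibroblast and collagen genes rose in 6 of 30 tested (3.15% of all genes), with a median log2 fold change of 0.96 (0.75 without GB-IL liver 1). *Vim*, the vimentin of mesenchymal and many other cells, had 68.7, 39.4, 89.8 and 36 CPM in GB-IL livers 1 to 4 and 22, 17.5, 24.9, 21.7 and 18.5 CPM in DIO livers 1 to 5, without overlap (log2 fold change 1.48, standard error 0.338, edgeR adjusted p = 0.0336). *Col1a1*, the main fibrillar collagen, had 16.7, 2.43, 27.9 and 16.1 CPM against 6.18, 2.02, 9.36, 5.38 and 4.18 CPM and did not pass (log2 fold change 1.54, edgeR adjusted p = 0.152). *Acta2*, of activated stellate cells and smooth muscle, had 14.9, 1.41, 3.22 and 7.23 CPM against 3.82, 1.57, 8.35, 3.56 and 1.78 CPM (log2 fold change 0.81, edgeR adjusted p = 0.413). *Des* (desmin), a protein of stellate cells and of skeletal muscle, had 243, 12.7, 5.89 and 4.43 CPM in GB-IL livers 1 to 4, and its log2 fold change was 3.92 with GB-IL liver 1, the liver with muscle RNA, and 0.79 without it. Of 5 mesothelial genes tested, which mark the liver surface, 0 passed, and the summed level of the 6 genes on the list was 33.1, 2.88, 17.8 and 9.19 CPM in GB-IL livers 1 to 4 and 1.98 to 8.56 CPM in DIO. *Timp1* was below the count filter with 535, 31, 133 and 7 counts in GB-IL livers 1 to 4 and 3 to 8 in the DIO livers. Of 22 endothelial genes 2 rose (3.15% of all genes did), *Cd34* and *Icam1*. *Stab2*, of sinusoidal endothelium, had 44.5, 37, 69.3 and 50.8 CPM against 50.8, 48.4, 53, 60.5 and 56.2 CPM (log2 fold change -0.09, edgeR adjusted p = 0.879).

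**Figure D5:**
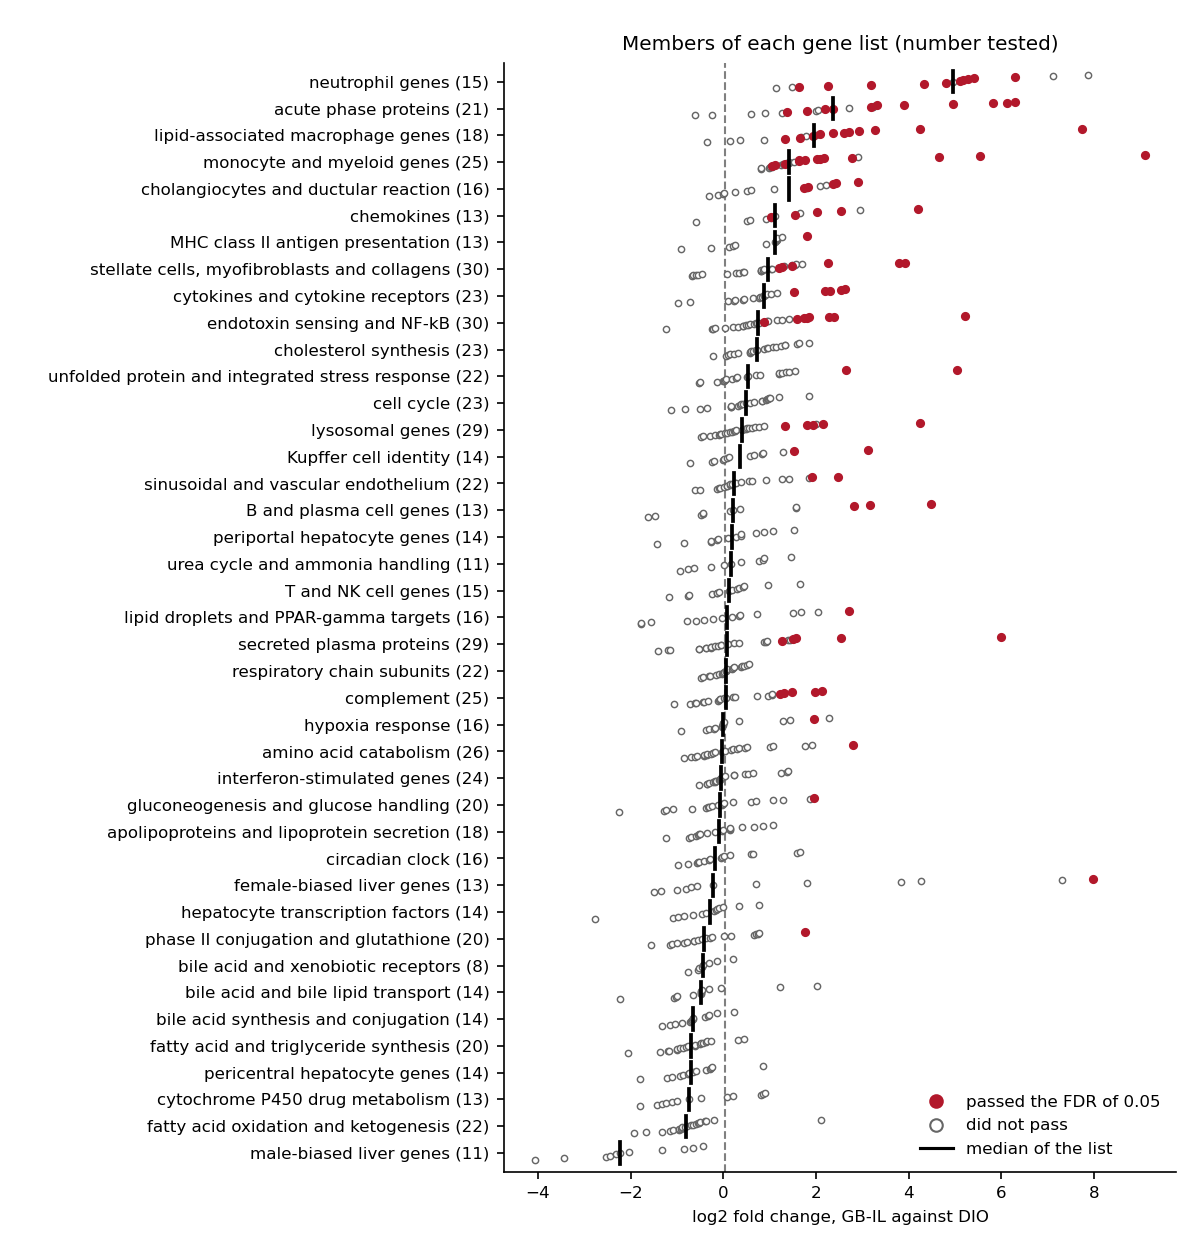
Log2 fold change of GB-IL against DIO for each tested member of the gene lists (red, past the FDR of 0.05; open, not past it; black bar, median of the list; dashed line, 0.04, the median of all genes tested), with the number tested in parentheses. Most called members lie in the immune, acute phase, bile duct and mesenchymal lists, and the bile acid, fatty acid and male-biased lists hold 0 called members.

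Besides the lysosomal genes given above, the lists on general cell functions held 1 call. Of 23 cell cycle genes tested 0 passed, and the median of the list was -0.49, -0.38, 0.70 and 0.75 log2 units from the DIO mean in GB-IL livers 1 to 4. *Mki67*, the proliferation marker Ki-67, had 2.68, 1.81, 12 and 9.3 CPM in GB-IL livers 1 to 4 and 4.03, 2.9, 6.62, 2.15 and 2.5 CPM in DIO livers 1 to 5 (log2 fold change 0.83, edgeR adjusted p = 0.323). Of 22 respiratory chain genes 0 passed the FDR and 0 had an unadjusted p below 0.05, with a median log2 fold change of 0.06. Of 16 hypoxia genes 1 rose (3.15% of all genes did), *Hk2*. The clock list had 0 of 16 called. *Arntl* (BMAL1), whose level follows the time of day, had 24.4, 1.64, 3.9 and 2.58 CPM against 15.7, 3.44, 1.68, 1.36 and 4.66 CPM, with GB-IL liver 1 and DIO liver 1 standing above all others. The hour of collection of each liver is not given in the sources used here. RNAs lacking a poly(A) tail, such as a total RNA kit retains, summed to 226, 178, 133 and 117 CPM in GB-IL livers 1 to 4 and to between 116 and 200 CPM in DIO. The kit of each liver cannot be told from the labels.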

How the data were processed

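Liver RNA was sequenced on an Illumina HiSeq after amplification. The deposited values are whole-number read counts per gene, which the authors made by aligning reads with TopHat2 and counting with HTSeq (the submitters' processing notes list the builds mm10 and hg19), and these counts were not normalized. The strand setting, the annotation and the treatment of reads that match several genes are not stated by the labels or methods read here, so counts of near-identical and overlapping genes are uncertain. The labels name a stranded mRNA kit and a stranded total RNA kit without giving the kit of each liver.

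All 14 livers (4 GB-IL, 5 DIO, 5 RYGB) entered 1 model with a mean per group. Of 25212 genes listed, 14252 passed edgeR's filterByExpr. Counts were scaled by TMM and tested with edgeR 4.0.16 (R 4.3.3, quasi-likelihood test, GB-IL minus DIO) and p-values were adjusted by Benjamini-Hochberg (FDR of 0.05). CPM are TMM-scaled, and 0.5 CPM was added before log2 for differences from the DIO mean. Fold changes are log2. *Tnf* and *Cd8a*, below the filter, were tested by exact permutation of CPM. Total counts of 18440676 to 26131278 per liver set the counting precision, and reads carried no molecular identifiers.

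The named genes were the 10 largest rises and 10 largest falls among called genes whose groups did not overlap and whose mean reached 1 CPM, landmarks of 48 gene lists chosen by function, and the 2 genes of smallest p in each list. *Pfkm*, *Pklr*, *Scd1*, *Crp*, *Mt1*, *Mt2*, *C7*, *Des* and members given only because they were called or too low to test were added after their values were seen. Some genes that the rule names are not reported here. The comparison, its lists and the rule were chosen with earlier results of these data known. Gene positions are from GENCODE M21 on GRCm38 (24701 genes matched by identifier) and upstream sequences from RefSeq on GRCm38.p6. Alternatives were DESeq2 1.42.0, edgeR's exact test, limma 3.58.1 with voom, other scalings and filters, a model of the 9 livers alone, a replicate block and leaving out each liver. The columns of 0 samples were left unmapped.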

Additional observations from a re-analysis of the deposited data

Results flagged for a closer look

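Single livers that stood far from the rest of their group, by Dixon's criterion for a gap to the nearest liver as a share of the group's range, were found in 19 of 186 groups of values tested. For independent, normally distributed values chance flags about 1 in 20. Most values here are CPM without a log, and their genes and lists were chosen for the text, so that rate need not hold. In GB-IL liver 1, skeletal muscle genes summed to 2141 CPM (next highest 3.56 CPM) and pancreatic acinar genes to 1575 CPM (next 13.5 CPM), *Des* had 243 CPM (next 12.7 CPM) and *Arntl* 24.4 CPM (next 3.90 CPM). In GB-IL liver 2, *Ddit3* had 28.7 CPM (next 8.96 CPM).

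GB-IL liver 3 stood alone in immune genes, with *Saa1* at 14900 CPM (next 2110 CPM), *Cd74* at 819 CPM (next 164 CPM), *Marco* at 542 CPM (next 144 CPM) and *H2-Aa* at 239 CPM (next 48.9 CPM). GB-IL liver 4 stood alone in the acute phase list, with a median of -0.482 log2 units from the DIO mean against 2.66 in the next liver, and in the adipose list, with a sum of 3454 CPM against 140 CPM.

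DIO liver 1 stood above the other DIO livers in *Elovl3* (381 CPM, next 99 CPM), *Sqle* (86.6 CPM, next 24.8 CPM), *H2-Aa* (65.4 CPM, next 44.0 CPM), *Ddit3* (17.3 CPM, next 8.96 CPM), *Arntl* (15.6 CPM, next 4.66 CPM) and the cholesterol synthesis list (0.99 log2 units above the DIO mean, next -0.115). In DIO liver 2, *Onecut1* had 33.3 CPM (next 5.86 CPM), and in DIO liver 5 skeletal muscle genes summed to 3.89 CPM (next 1.53 CPM).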

How the results depend on the processing

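The 449 higher and 16 lower calls moved with the model more than with scaling or filters. By DESeq2 the counts were 1164 and 183, by the exact test of edgeR 1032 and 97, by voom with sample quality weights 510 and 79, in the 9 livers alone 0 and 0, by voom with 1 weight per group 0 and 0 (2219 genes at an unadjusted p below 0.05), and in the 9 livers without GB-IL liver 4, chosen after seeing the data, 1403 and 681. Replicate numbers are shared names here, since the deviations of same-numbered livers correlated at -0.063, -0.382, 0.008 and -0.252, and a replicate block left 1 higher and 0 lower (2957 genes at an unadjusted p below 0.05). Leaving out 1 liver gave from 0 to 2228 higher and from 0 to 1344 lower, with 0 of both when GB-IL liver 1, GB-IL liver 2 or any DIO liver was missing, and with the highest counts without GB-IL liver 4. Without an RYGB liver they were 288 to 460 and 6 to 22. Without GB-IL liver 3, 540 were higher and 36 lower. The causes were not tested. Other scalings moved the median log2 fold change of all genes by at most 0.04.

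Of the genes named, 9 changed sign, none of them called. The log2 fold change of *Clec4f*, 0.0015 as reported, was -0.02 by DESeq2 and with no filter, -0.01 with RLE scaling and in the 9 livers alone, -0.15 with the replicate block and -0.28 by voom with 1 weight per group. By voom with sample quality weights, *Crp* was at 0.10, *Nr0b2* at 0.05 and *Stab2* at 0.04, and *Stab2* was also at 0.04 with the replicate block. With 1 liver left out, the values ran from -0.99 to 1.53 for *Arntl*, -0.02 to 1.37 for *Cd74*, -0.42 to 0.31 for *Clec4f*, -0.61 to 0.10 for *Crp*, -0.29 to 0.91 for *Ddit3*, -0.34 to 1.19 for *H2-Aa*, -0.96 to 0.19 for *Nr0b2*, -0.58 to 0.02 for *Plin2* and -0.29 to 0.01 for *Stab2*. The difference in mean CPM of *Tnf* ran from -0.00637, without GB-IL liver 3, to 0.46.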
